A study of Homo sapiens with 5 samples.

Results

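CXCL8 and 7 genes tied to the same inflammatory transcription factor were followed across MDA-MB-231 cells, a human triple-negative breast cancer line, kept for 4 h in 5 conditions. The genes were chosen by name: the chemokines CXCL8 and CXCL1, the cytokines IL6, LIF, IL11 and IL24, and the NF-kB inhibitor genes NFKBIA and TNFAIP3. Of these 8 genes, 7 were measured among the 4202 genes of the deposited table, and TNFAIP3 was not analysed here. The names were picked with earlier results of these same libraries known, among them the lower CXCL8, IL11 and IL24 under CGI-1746 or the combination, so their differences from mock are given as a description.

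The conditions were CGI-1746, which the labels call a BTK inhibitor, LU-102, CGI-1746 plus LU-102 (the combination below), bortezomib as the control for proteasome inhibition, and mock. Total RNA was sequenced in 1 library for each condition, so no value has a replicate error and no difference could be tested. The level of a gene in a library is a normalized signal whose scaling was not given in the sources used here. For most short RNA genes checked, level times length fell on steps of 0.5 reads. Reads were therefore taken as scaled by the length of the gene and a factor of the library. On that reading, levels of different genes can be set side by side. In a bulk culture, fewer expressing cells and less RNA per cell cannot be told apart. Doses and culture conditions were not given in the sources used here.

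NF-kB is a family of transcription factors held in the cytoplasm by inhibitor proteins, of which IkB-alpha, the product of NFKBIA, is the best known. Inflammatory signals mark IkB-alpha with phosphate and ubiquitin, the proteasome degrades it, and freed NF-kB enters the nucleus and switches on chemokine and cytokine genes. NFKBIA and TNFAIP3 are themselves switched on by NF-kB and close a feedback loop. Proteasome inhibitors are widely used to keep IkB-alpha from being degraded. Cytokine promoters such as that of CXCL8 also bind AP-1 and C/EBP factors, and many cytokine messengers are short-lived because of AU-rich elements.

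The bortezomib library stood apart from the other libraries. There 2231 genes had a level of at least 1, against 4161 in mock and 4170 to 4177 in the other treated libraries. The summed level over all genes was nonetheless highest with bortezomib, at 135512. It was 99255 in mock, 100684 under CGI-1746, 126120 under LU-102 and 124373 under the combination. The median log2 ratio of bortezomib to mock, taken as log2 of (level + 1), was -0.98 over 4189 genes. The medians of the other treatments lay between -0.06 and 0.03. A low median with bortezomib thus does not mean less signal in total. The 8 mesenchymal genes used to check the line (VIM, LGALS1, AXL, CD44, S100A4, SNAI2, CAV1 and MSN) were all measured, with summed levels of 191 to 212 in the inhibitor libraries without bortezomib, 43.4 under bortezomib and 201 in mock. KRT8, KRT18 and KRT19 were measured among 7 luminal and epithelial genes and summed to 49.6 in mock. CD68 was the single gene measured of 6 for white blood cells and endothelium, and its level was 2.26 under bortezomib, against 7.32 in mock. The part of this shift in the bortezomib results below was not tested, so values are given as deposited and relative to the all-gene median.

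The stretches just upstream of the start sites are shown because they carry the letters that NF-kB and AP-1 are known to bind. RefSeq promoters on GRCh38.p14 were at hand for 6 of the 7 measured genes, and LIF had none. Over the 250 bases before each start, both strands were searched for the NF-kB consensus, for GGAATTTCC and for the AP-1 letters TGANTCA. The 150 bases next to the start are printed for 5 genes, 5' to 3' in the direction of the gene, with every match in capitals. They lie at chr4:73740419-73740568 (plus strand) for CXCL8, chr4:73869243-73869392 (plus) for CXCL1, chr7:22727050-22727199 (plus) for IL6, chr14:35404750-35404899 (minus) for NFKBIA and chr19:55370464-55370613 (minus) for IL11.
CXCL8: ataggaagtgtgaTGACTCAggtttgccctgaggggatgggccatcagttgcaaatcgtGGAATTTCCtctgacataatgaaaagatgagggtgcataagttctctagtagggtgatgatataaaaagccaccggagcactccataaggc
CXCL1: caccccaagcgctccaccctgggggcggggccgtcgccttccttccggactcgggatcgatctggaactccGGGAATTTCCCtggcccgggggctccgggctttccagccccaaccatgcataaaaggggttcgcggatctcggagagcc
IL6: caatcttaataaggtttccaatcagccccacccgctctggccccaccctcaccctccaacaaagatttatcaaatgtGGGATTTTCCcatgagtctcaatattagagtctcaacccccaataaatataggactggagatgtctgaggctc
NFKBIA: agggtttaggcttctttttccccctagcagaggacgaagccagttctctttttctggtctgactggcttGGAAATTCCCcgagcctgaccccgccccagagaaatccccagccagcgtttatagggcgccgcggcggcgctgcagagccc
IL11: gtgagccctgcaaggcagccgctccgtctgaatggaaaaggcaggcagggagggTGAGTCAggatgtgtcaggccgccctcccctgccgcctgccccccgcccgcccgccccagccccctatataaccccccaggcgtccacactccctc

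CXCL8 held GGAATTTCC from 91 to 83 bases before its start and TGACTCA from 137 to 131 bases before it, and no match to the full NF-kB consensus. CXCL1 held the NF-kB consensus from 79 to 70 bases before its start, overlapped by a second match on the other strand and by GGAATTTCC. In IL6 the consensus matched as GGGATTTTCC, 73 to 64 bases upstream. NFKBIA matched both the consensus and GGAATTTCC on the opposite strand, 81 bases upstream. IL11 held TGAGTCA, 96 to 90 bases upstream, and no NF-kB letters. IL24 held none of these letters in its 250 bases. Of 35116 promoters searched in the same window, 5.21% held the NF-kB consensus, 0.413% held GGAATTTCC and 6.57% held TGANTCA. GGAATTTCC was chosen after the member sequences were seen, and a match describes letters, not binding.

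CXCL8 encodes interleukin-8, the neutrophil chemokine that acts through CXCR1 and CXCR2. The gene lies on chromosome 4, 73740569 to 73743716, with 4 exons in its principal transcript. Its level was 11.01 under CGI-1746, 11.8 under LU-102, 9.70 under the combination and 29.7 under bortezomib, against 15.4 in mock. All 3 libraries with CGI-1746 or LU-102 lay below mock, the combination lowest, and the bortezomib library alone lay above it. The library with the highest level held 3.06 times the level of the lowest.

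On the log2 scale CXCL8 differed from mock by -0.45 under CGI-1746, -0.36 under LU-102, -0.62 under the combination and 0.90 under bortezomib. These were ranks 14 from the bottom of 4186 genes compared under CGI-1746, 35 from the bottom of 4193 under LU-102 and 7 from the bottom of 4189 under the combination. With bortezomib it was 69 from the top of 4189. Plain ratios of levels, free of the pseudocount, were 0.714 under CGI-1746, 0.763 under LU-102, 0.630 under the combination and 1.93 under bortezomib. If the principal transcript of 1705 bases was the length used, the mock level stands for about 443 reads, and counting error alone gives 95% exact intervals of 0.616 to 0.826 for CGI-1746, 0.659 to 0.878 for LU-102, 0.539 to 0.732 for the combination and 1.72 to 2.16 for bortezomib. Differences between cultures are not in these intervals. Among all 4202 genes, 5 were lower by at least 0.32 (log2) in the CGI-1746, LU-102 and combination libraries at once, and of these 5 CXCL8 alone was higher by as much with bortezomib. That count follows from the pattern for which CXCL8 was picked, and relative to the all-gene median the LU-102 difference was -0.31, just short of 0.32.

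CXCL1, a chemokine that shares the receptor CXCR2, is a neighbour of CXCL8 on chromosome 4, at 73869393 to 73871308. Its levels were low, at 1.63 under CGI-1746, 1.253 under LU-102, 1.57 under the combination and 2.86 under bortezomib, against 1.98 in mock. As for CXCL8, the bortezomib library was highest and the other treated libraries lay below mock, but here LU-102 was lowest. The log2 ratios to mock were -0.18 under CGI-1746, -0.41 under LU-102, -0.22 under the combination and 0.37 under bortezomib. The mock level corresponds to about 37 reads, and the counting interval of the ratio held 1 in each of these 4 comparisons (0.348 to 1.06 under LU-102 and 0.924 to 2.21 under bortezomib). CXCL2, a close relative whose reads could be mixed with those of CXCL1, stood at 1.66 under CGI-1746, 1.47 under LU-102, 1.72 under the combination and 1.197 under bortezomib, against 1.29 in mock.

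**Figure D1:**
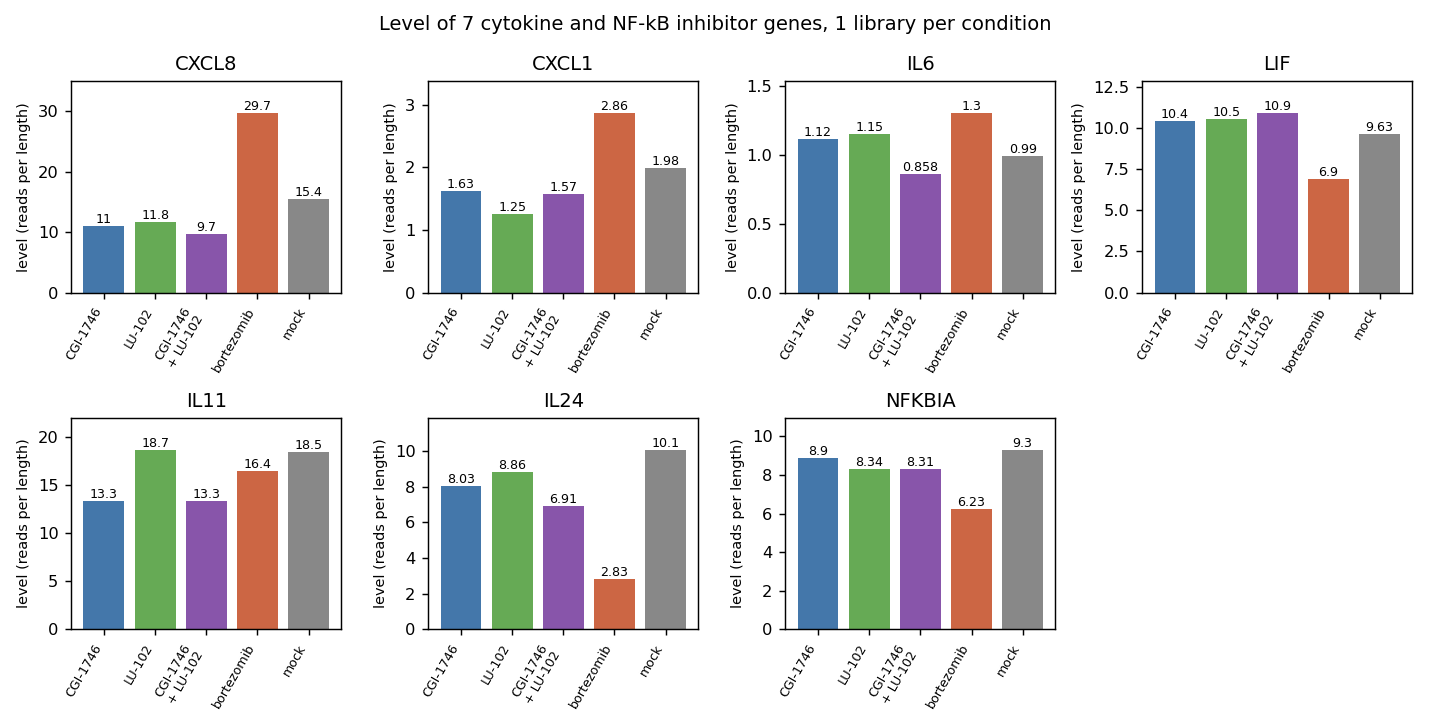
Level of each measured gene in the 5 libraries, 1 bar per library with no error. The vertical axis, after the authors' normalization, has its own scale for each gene. Its label, reads per length, is a scaling inferred here from short RNAs. CXCL8 and CXCL1 were highest with bortezomib (29.7 and 2.86), IL24 was lowest there (2.83), and IL11 was at 13.3 in both libraries that received CGI-1746.

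IL6, the cytokine that gives its family its name, lies on chromosome 7, 22727200 to 22731998. It sat at the floor of the table: its 5 levels summed to 5.41, and the lowest sum of any listed gene was 5.04. The levels were 1.12 under CGI-1746, 1.15 under LU-102, 0.858 under the combination and 1.30 under bortezomib, against 0.990 in mock, where this stands for about 20 reads. Every counting interval of its ratio to mock held 1, and that for bortezomib ran from 0.718 to 2.45, so no difference was detectable at this depth. IL6 was left out of the counts for the combination, since both levels were under 1.

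LIF, a cytokine of the same family that holds mouse embryonic stem cells in an undifferentiated state, lies on chromosome 22, 30240453 to 30246759. Its levels were 10.4 under CGI-1746, 10.5 under LU-102, 10.9 under the combination and 6.90 under bortezomib, against 9.63 in mock. Unlike CXCL8, it lay slightly above mock in the 3 libraries with CGI-1746 or LU-102 and below it with bortezomib. The log2 ratios were 0.10, 0.12 and 0.16 for CGI-1746, LU-102 and the combination and -0.43 for bortezomib. The combination ratio of 1.13 had a counting interval of 1.02 to 1.26, with about 735 reads in the combination and 644 in mock.

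IL11, another cytokine of this family and a product of bone-seeking breast cancer cells, lies on chromosome 19, 55364382 to 55370463. Its levels were 13.3 under CGI-1746, 18.7 under LU-102, 13.3 under the combination and 16.4 under bortezomib, against 18.5 in mock. The levels split by CGI-1746: both libraries that received it had about the same level, and LU-102 alone was 0.01 above mock on the log2 scale. CGI-1746 stood at a log2 ratio of -0.45 to mock, rank 15 from the bottom, and the combination at -0.44, rank 20 from the bottom. With counting intervals of 0.614 to 0.845 for both, neither ratio held 1, while that of LU-102 ran from 0.873 to 1.17.

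IL24, a cytokine of the interleukin-10 family, lies on chromosome 1, 206897443 to 206904139. It had a level of 8.03 under CGI-1746, 8.86 under LU-102, 6.91 under the combination and 2.83 under bortezomib, against 10.1 in mock. Every treated library lay below mock, and the order from mock downward was LU-102, CGI-1746, the combination and bortezomib. The log2 ratios were -0.29 under CGI-1746, -0.17 under LU-102, -0.49 under the combination and -1.53 under bortezomib. The combination placed it at rank 15 from the bottom. Counting intervals of the plain ratio were 0.666 to 0.949 for CGI-1746 and 0.570 to 0.824 for the combination, while that of LU-102, 0.741 to 1.05, held 1.

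NFKBIA, the IkB-alpha gene on chromosome 14 at 35401513 to 35404749, had levels of 8.90 under CGI-1746, 8.34 under LU-102, 8.31 under the combination and 6.23 under bortezomib, against 9.30 in mock. The 3 libraries with CGI-1746 or LU-102 lay within 1.12-fold of mock and of each other. Their log2 ratios were -0.06, -0.14 and -0.15 for CGI-1746, LU-102 and the combination, and that of bortezomib was -0.51. Counting intervals held 1 for the first 3 of these comparisons and ran from 0.551 to 0.817 for bortezomib.

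The measured genes were then counted against fixed limits, 2-fold and a smaller one of 0.32 on the log2 scale. With CGI-1746, 2 of 7 were lower by at least 0.32 (CXCL8 and IL11) against 0.836% of all genes compared, and none was higher by as much, against 1.53%. LU-102 had 2 of 7 lower (CXCL8 and CXCL1) against 1.43% of all genes, and none higher, against 2.03%. In the combination 3 of 6 were lower (CXCL8, IL11 and IL24) against 1.38%, and none higher, against 5.42%. No measured member passed 2-fold in these 3 comparisons, where 0.0478% of genes were lower by 2-fold under CGI-1746, 0% under LU-102 and 0.0477% under the combination, and 0.119%, 0.0715% and 0.167% were higher in the same order. The member medians were -0.18, -0.14 and -0.33 for CGI-1746, LU-102 and the combination, beside all-gene medians of -0.02, -0.06 and 0.03. Since CXCL8, IL11 and IL24 were picked for low values in these comparisons, nothing is read from those counts. The 4 comparisons with mock share the mock library, so a high or low value there would move all of them.

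**Figure D2:**
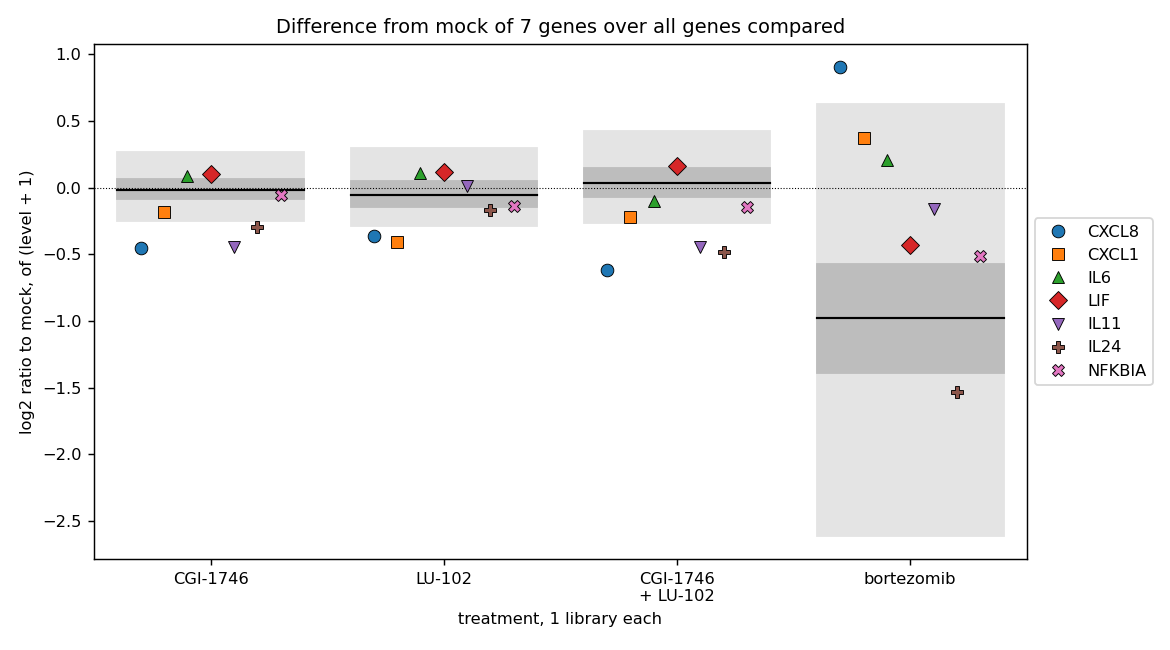
Log2 ratio to mock of (level + 1) for the 7 measured genes (symbols) in each treatment, over all genes compared (black line, median; dark band, middle 50%; light band, middle 95%). CXCL8 lay below the light band with CGI-1746 (-0.45), LU-102 (-0.36) and the combination (-0.62), and above it with bortezomib (0.90). IL6 is drawn for the combination but was not among the 6 genes compared there.

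Bortezomib against mock gave a different order of the genes. As deposited, 2 of 7 were higher by at least 0.32 (CXCL8 and CXCL1) against 4.01% of all genes, and 3 were lower (LIF, IL24 and NFKBIA) against 85.1%. IL24 was the single member lower by 2-fold, against 48.1% of genes, and none was higher by 2-fold, against 1.38%. Relative to the all-gene median, 6 of 7 were higher by at least 0.32, against 28.9% of genes, and IL24 was lower, against 29.1%. IL6 could not have been counted lower there, since even a complete loss from its mock level of 0.990 would have left it close to the median. It was compared only because its bortezomib level of 1.30 reached 1, so a bortezomib level under 1 would have left it out. With levels summing to 5.41, near the lowest sum of 5.04, a large fall might also have left it unlisted. At low levels, as for IL6 and CXCL1, the added 1 draws ratios toward no change, which lies above this median. On that scale CXCL8 stood at 1.88, CXCL1 at 1.35, IL6 at 1.19, IL11 at 0.82, LIF at 0.55, NFKBIA at 0.47 and IL24 at -0.55. LIF, IL11 and NFKBIA were thus below mock as deposited and above the typical gene, and with median-of-ratios scaling they also lay above mock, at 0.44, 0.76 and 0.35. CXCL8 lay above 0 and IL24 below 0 on every one of these scales. CXCL1 and IL6 also lay above 0 on each, but as deposited the counting intervals of their ratios held 1. The members were chosen with earlier results of these libraries known, so nothing is read from the bortezomib counts either.

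The order of levels also differed between the libraries. In mock IL11 was highest of the 7 genes, then CXCL8, IL24, LIF, NFKBIA, CXCL1 and IL6. With bortezomib CXCL8 came first, and IL24, behind IL11 and CXCL8 in mock, was next to last. CXCL8 was 91st of 4202 genes by level with bortezomib, against 428th in mock, and CXCL1 was 867th with bortezomib, against 2957th in mock. Ranks also rose for LIF (677th in mock, 371st with bortezomib), IL11 (342nd, 169th) and NFKBIA (707th, 419th), whose levels were lower with bortezomib. A better rank there thus does not mean a higher level. IL6 went from 4165th in mock to 1771st with bortezomib, on few reads. IL24 was 879th with bortezomib, against 651st in mock. In the combination library CXCL8 was 699th and IL24 997th.

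**Figure D3:**
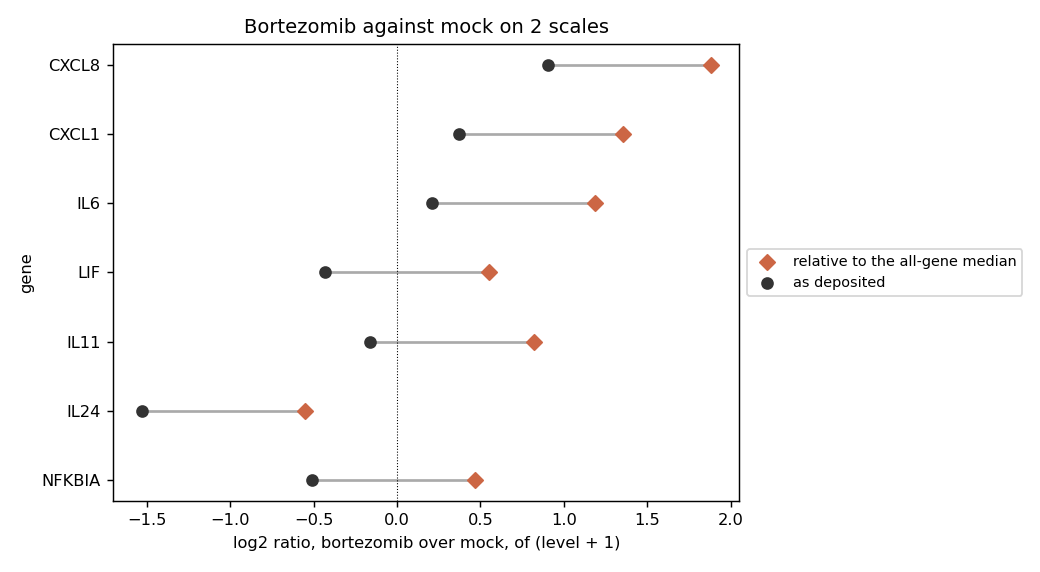
Log2 ratio of bortezomib over mock for each measured gene, as deposited (circles) and relative to the all-gene median of -0.98 (diamonds). LIF, IL11 and NFKBIA lay below 0 as deposited and above 0 on the relative scale, and IL24 was below 0 on both (-1.53 and -0.55).

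The next comparison asked what a second inhibitor added to the first. CXCL8 had 9.70 in the combination, against 11.01 under CGI-1746 alone, a log2 ratio of -0.17 whose plain ratio had a counting interval of 0.748 to 1.04. Against LU-102 alone, at 11.8, its log2 ratio was -0.25 and the interval 0.703 to 0.970. IL11 did not separate from CGI-1746 alone (log2 ratio 0.00, interval 0.842 to 1.19) and was lower than with LU-102 alone by log2 -0.46 (0.609 to 0.836). IL24 stood at -0.19 to CGI-1746 alone (0.710 to 1.05) and at -0.319 to LU-102 alone (0.645 to 0.941), just short of the limit of 0.322. Of 7 genes, IL11 alone was at least 0.32 lower than with LU-102, against 0.978% of genes, and none was at least 0.32 lower than with CGI-1746, against 0.668%. None was at least 0.32 higher in either comparison, against 3.39% of genes for CGI-1746 and 3.01% for LU-102. Since the all-gene median against LU-102 alone was 0.08, the count relative to it was 3 of 7 (CXCL8, IL11 and IL24) against 1.65%, and none was higher by as much, against 1.31%. These 3 genes were picked with their low values under CGI-1746 or the combination known, so nothing is read from these counts either.

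Departure from additivity sets the log2 ratio of the combination to mock against the summed log2 ratios of CGI-1746 and LU-102. The single effects on CXCL8 summed to -0.81 and the combination gave -0.62, a departure of 0.20 that 76.0% of genes fell below. IL11 departed by -0.01 and IL24 by -0.02, beside sums of -0.43 and -0.46. These values moved with the scaling: with median-of-ratios scaling the departures were 0.04 for CXCL8, -0.17 for IL11 and -0.18 for IL24. CXCL1 departed by 0.37, above 96.3% of genes, and IL6 by -0.30, with 1.81% of genes lower, both on few reads. The all-gene median departure was 0.10.

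LU-102 and the combination were also set against bortezomib. CXCL8 had 11.8 under LU-102 and 9.70 under the combination, against 29.7 under bortezomib, log2 ratios of -1.27 and -1.52. As deposited, it was the single member 2-fold lower in either comparison, against 1.36% of genes for LU-102 and 1.26% for the combination. IL24 went the other way at 1.36 under LU-102 and 1.04 under the combination, and was the single member 2-fold higher, against 43.1% and 49.4% of genes. Relative to the all-gene medians of 0.91 and 0.99, IL24 was at 0.45 and 0.05 and CXCL8 at -2.18 and -2.51. On that scale CXCL1 stood at -1.69 and -1.58, IL6 at -1.01 and -1.30, and IL11 at -0.74 and -1.27, for LU-102 and the combination. At the low levels of CXCL1 and IL6 the added 1 draws ratios toward no change, which lies below these medians. The 6 genes other than IL24 were lower by at least 0.32 relative to the median in both comparisons, against 27.6% of genes for LU-102 and 27.4% for the combination. For the combination, IL6 was compared only through its bortezomib level of 1.30, since its combination level of 0.858 was under 1. IL24 was higher by as much with LU-102, against 28.6% of genes, and no member was with the combination, against 29%. The picking of CXCL8, IL11 and IL24 by low values also bears on the combination counts here. All members were chosen with earlier results of these libraries known, so nothing is read from the counts against bortezomib.

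Genes of the NF-kB pathway itself were counted from lists. Their bortezomib values are as deposited, where the all-gene median was -0.98, so a gene that is lower than mock by less than this lay above the typical gene. With median-of-ratios scaling the all-gene median was -0.44. Of 5 NF-kB subunit genes 2 were measured: RELA, the p65 subunit, had 5.84 under CGI-1746, 6.07 under LU-102, 7.004 under the combination and 0.814 under bortezomib, against 6.45 in mock. NFKB2, the p100 gene, had 5.17 under bortezomib, against 5.47 in mock, and 5.14 to 5.86 in the other treated libraries. Neither passed 0.32 outside bortezomib, where RELA stood at a log2 ratio of -2.04. Few of all genes did: 0.836% to 1.43% were lower by as much in the treatments without bortezomib, and 1.53% to 5.42% higher. Of 12 further inhibitor and feedback genes 2 were measured, and NFKBIE, which encodes IkB-epsilon, was at 4.51 under bortezomib, against 2.13 in mock, a log2 ratio of 0.82. TNIP2, an NF-kB feedback protein gene, was at -0.41 there.

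Upstream kinases and adaptors numbered 7 measured of 23. None was lower by at least 0.32 with CGI-1746, LU-102 or the combination, against 0.836%, 1.43% and 1.38% of all genes. SHARPIN, a subunit of the linear ubiquitin ligase, was 0.49 higher on the log2 scale with the combination, where 5.42% of genes were higher by at least 0.32. With bortezomib all 7 were lower by at least 0.32, against 85.1% of genes, among them IRAK1, a Toll-like receptor kinase, at 7.38 under bortezomib, against 21.5 in mock, and BIRC2, a ubiquitin ligase, at 0.920 under bortezomib, against 6.48 in mock. SKP1 and UBE2D3 were measured of 10 listed names for ubiquitin marking of IkB and related proteins, where an alias enters the same gene again. They had a median of -1.01 under bortezomib and between -0.13 and -0.04 in the other treatments.

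Other NF-kB targets gave 18 measured genes of 31. Their medians were -0.04 under CGI-1746, -0.07 under LU-102 and -0.01 under the combination, near the all-gene medians. None was lower by at least 0.32 there, against 0.836%, 1.43% and 1.38% of all genes in the same order. With so few genes lower, a count of 0 does not set these targets apart. With the combination 2 of the 18 were higher, SQSTM1, an autophagy receptor gene, and G0S2, against 5.42% of all genes. With bortezomib 9 of the 18 were lower by at least 0.32, against 85.1% of all genes, and 2 were higher, against 4.01%. The higher ones were IER3, a stress-induced gene, and G0S2. IER3 had 199 under bortezomib, against 111 in mock, a log2 ratio of 0.83. PLAU, the urokinase gene, was at 21.7 under bortezomib, against 44.2 in mock. F3, tissue factor, was at 10.3 under bortezomib, against 40.3 in mock. The list median with bortezomib was -0.30, and 13 of the 18 lay above the all-gene median.

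Of 25 other cytokine genes 6 were measured. CSF2, which encodes GM-CSF, had 2.10 under CGI-1746, 1.253 under LU-102, 1.70 under the combination and 4.11 under bortezomib, against 2.34 in mock. Like CXCL8 it was below mock in the 3 libraries with CGI-1746 or LU-102 and above it with bortezomib. The CSF2 log2 ratios were -0.11 under CGI-1746, -0.57 under LU-102, -0.31 under the combination and 0.61 under bortezomib. Its levels were low, and no counting interval was computed for it. CSF1, the macrophage colony-stimulating factor gene, was at 5.97 under bortezomib, against 3.22 in mock, and 2.99 to 3.36 in the other treated libraries. TGFB2, a TGF-beta gene, was at 0.547 under bortezomib, against 2.67 in mock, and IL32, a pro-inflammatory cytokine gene, at 1.10 under bortezomib, against 2.06 in mock.

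Receptors and signal carriers of these cytokines, 7 measured of 18, were all lower by at least 0.32 with bortezomib, as were 85.1% of all genes, and had a median of -0.95, close to the all-gene value. IL6ST, the shared receptor subunit for IL6, LIF and IL11, was at 1.15 under bortezomib, against 5.96 in mock. SOCS3, a feedback inhibitor induced by STAT3, was at 0.879 under bortezomib, against 6.11 in mock, and at 6.02 to 6.52 in the other treated libraries. None of the 7 passed 0.32 with CGI-1746, LU-102 or the combination. Of all genes, 0.836%, 1.43% and 1.38% were lower by as much there, and 1.53%, 2.03% and 5.42% higher.

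AP-1 and C/EBP factors, 9 measured of 12, included genes that were higher with bortezomib. JUND, an AP-1 subunit, had 75.3 under bortezomib, against 15.8 in mock, and CEBPB, a C/EBP factor, had 14.2 under bortezomib, against 5.01 in mock. FOSB, another AP-1 subunit, had 1.15 under CGI-1746, 0.709 under LU-102, 0.917 under the combination and 4.57 under bortezomib, against 1.31 in mock. That is the direction of CXCL8 in all 4 treatments, but outside bortezomib these levels lay near the floor. The FOSB log2 ratios under CGI-1746 (-0.11) and the combination (-0.27) were short of 0.32, and no counting interval was computed. With bortezomib JUND, CEBPB and FOSB were higher by 2-fold, against 1.38% of all genes. FOSL1, also of AP-1, was at 3.06 under bortezomib, against 14.2 in mock. CEBPB also lay above mock in the other treated libraries, at 7.34 under CGI-1746, 6.22 under LU-102 and 7.81 under the combination, opposite in direction to CXCL8 in those libraries. By the limit of 0.32, CEBPB was higher under CGI-1746 and the combination, FOSB was lower under LU-102 (-0.44) and CEBPD, another C/EBP factor, was lower under the combination (-0.34). JUN, an AP-1 subunit too, lay between 17.1 and 18.8 in all 5 libraries. Genes for regulators of AU-rich messengers were 10 measured of 16 listed names, where an alias also enters the same gene again. All 10 were lower by at least 0.32 with bortezomib, against 85.1% of all genes, and 9 of them by 2-fold, against 48.1%. The 4 with the highest mean level were among those lower by 2-fold. ZFP36L1 and ZFP36L2 were at 2.54 and 1.94 under bortezomib, against 7.72 and 7.004 in mock. HNRNPD and KHSRP were at 1.61 and 3.10 under bortezomib, against 7.10 and 11.5 in mock. Any bearing of these values on CXCL8 was not tested.

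Genes whose 4 log2 ratios to mock lay nearest to those of CXCL8 were sought where some library reached a level of 5. Nearness is the largest of the 4 absolute differences. NOG, a BMP antagonist, was nearest at 0.31: its level was 4.74 under CGI-1746, 6.79 under LU-102, 5.17 under the combination and 12.4 under bortezomib, against 7.08 in mock. MIDN, whose product brings nuclear proteins to the proteasome, and SCARNA13, a small Cajal body RNA, followed at 0.41, IER5, an immediate early response gene, at 0.49 and NANOS1, an RNA-binding protein gene, at 0.52. Even the nearest gene thus differed from CXCL8 by 0.31 in at least 1 treatment. IL24 had closer company: ZNF217, a zinc finger gene, and GPR65, an acid-sensing receptor, were both nearest at 0.10. FADS2, a fatty acid desaturase, and RAB1B, a small GTPase, were nearest to LIF at 0.05 and 0.08. RPL7L1 and RPL13AP20 were nearest to NFKBIA at 0.06 and 0.09, SNHG3 and CDC42EP1 to IL11 at 0.23 and 0.25, GADD45B and ZNF587 to IL6 at 0.12 and 0.13, and SCARNA13 and TMEM158 to CXCL1 at 0.12 and 0.25.

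**Figure D4:**
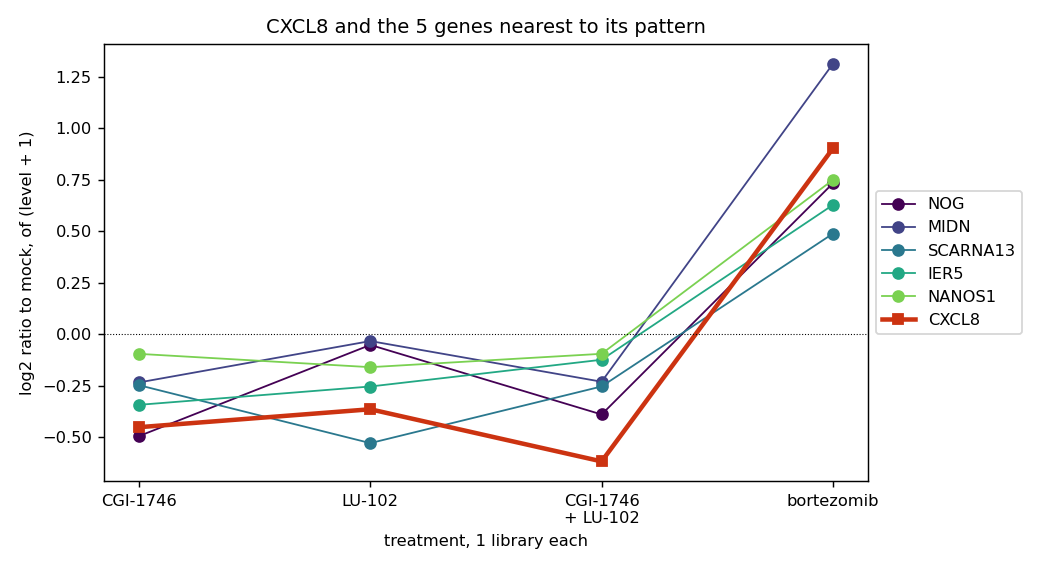
Log2 ratio to mock of (level + 1) in each treatment for CXCL8 (thick line) and the 5 genes nearest to its pattern; lines only join values of 1 gene. All 6 genes lay below 0 under CGI-1746, LU-102 and the combination and above 0 under bortezomib, and CXCL8 was lowest of them with the combination (-0.62).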

How the data were processed

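The data are 5 total RNA libraries of MDA-MB-231 cells, 1 per condition. The authors deposited a normalized signal per gene and library, named a least squares mean in the file header. Per the submitters' processing notes, Partek and hg38 were used; versions, aligner, annotation, filter and scaling were not given in the sources used here. A column named for total counts equals the sum of the 5 levels. Of 12 level columns, 7 repeated a library and were identical to the column used. The authors' deposited ratios and p-values were not used.

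What 1 read is worth was fitted on short RNA genes of RefSeq (42 matched, those up to about 60 reads used), whose level times length fell on steps of 0.5 reads. In level times bases it was 58.8 in the CGI-1746 library, 58.5 for LU-102, 58.9 for the combination, 53.8 for bortezomib and 59.4 for mock, and all but 0 to 2 of 19 to 30 genes lay within 0.1 of a whole step. Reads behind mRNA levels were estimated with the shortest principal transcript of GENCODE 29, so they are rough. Exact Clopper-Pearson intervals (95%) rest on them and cover counting error only, since reads are not independent molecules.

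Libraries were compared on log2(level + 1), a scale that understates ratios of low genes, among those genes that reached a level of 1 in either library. Genes past 2-fold, or past a log2 difference of 0.32, were counted, and no test was run. The members and the 10 gene lists were chosen with earlier results of these data known. Named were all members, up to 4 genes of each list by mean level, and the nearest genes, 5 for CXCL8 and 2 for each other member; SQSTM1, G0S2, FOSB and CEBPD, beyond these, were named after their values were seen. The values of a single list gene are not reported here. The 2-fold limit was tried on simulated data, with changes larger than 2-fold set in well-measured genes and counting noise alone. The limit of 0.32, low genes and differences between cultures were not tried there. Python 3.11.15, numpy 2.4.6, pandas 2.3.3, matplotlib 3.10.9 and scipy 1.17.1 were used.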

Additional observations from a re-analysis of the deposited data

How the results depend on the processing

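Over 6 alternative settings and 1 chosen after seeing the data (median-of-ratios scaling without the bortezomib library), 471 of 531 recomputed values stayed within counting error or within 1.5 times the count. A pseudocount of 0.1 and no filter on low levels kept all values within these bounds, though the pseudocount of 0.1 gave 3 lower members with CGI-1746, 4 with the combination and 3 higher ones with bortezomib by the limit of 0.32, and a CGI-1746 member median of -0.27. Without a filter the combination median was -0.22. With bortezomib the values moved with the scale: against mock, CXCL8 was at 1.84 with median-of-ratios scaling and 1.88 when centred on the all-gene median, and the member median to 0.76 and 0.82. On these scales 2 and 3 members were higher by 2-fold and 0 lower, and 6 were higher and 1 lower by at least 0.32, since both raise each member's bortezomib ratio. A pseudocount of 5 left 0 members lower by 2-fold and 1 higher by at least 0.32 with bortezomib, and 0 lower by at least 0.32 with LU-102. The LU-102 count was 1 when centred, with a level of at least 5 and with the added scaling, and the bortezomib count of higher members was 1 with a level of at least 5, where CXCL1 is not compared. Depth limits CXCL1 and IL6, at about 37 and 20 reads in mock. No paired analysis was possible because each condition has 1 library; leaving out a replicate was likewise not possible.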
